A study of Mus musculus with 16 samples.

Results

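Of 118981 open chromatin regions mapped in mouse haematopoietic progenitors, 1049 (0.882%) held a peak in both Flt3-ITD lists of the first set and were absent from the remaining 6 lists. These are the subject here. They were found by merging peaks of the 8 deposited lists that overlapped by at least 1 bp, on chromosomes 1 to 19, and keeping the regions present in exactly this pair. They were chosen by the presence or absence of a peak in each list, so their number, width and peak values are given as a description, without a test.

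The method was ATAC-seq, in which the Tn5 transposase cuts accessible DNA. The cells were progenitors labelled MPP, from mice 21 days old. Set 1 held Flt3-ITD/Runx1-het, Flt3-ITD, Runx1-het and wildtype mice. Set 2 held NUP98-HOXD13/Flt3-ITD, NUP98-HOXD13, Flt3-ITD and wildtype mice. The member lists are Flt3-ITD/Runx1-het and Flt3-ITD of set 1. The sets were told apart by how the samples are titled, and what else distinguishes them is not stated there. Each of the 8 groups had 2 samples that name the same peak list, so there was 1 list per group and no value per sample. Differences between genotypes therefore have no replicate check, and the depth of the libraries is unknown. The labels leave out the zygosity of Flt3-ITD, the promoter behind NUP98-HOXD13 and the sorting markers. As a check of the cell label, a region lay within 1 kb of a start of Kit, Cd34, Flt3, Myb and Ptprc in each of the 8 lists, and none lay there at Cd3e, a T cell gene (0 lists). An open promoter is no measure of expression.

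Flt3 is a receptor tyrosine kinase of early progenitors, and its internal tandem duplication keeps the kinase active without ligand, with STAT5 and MAPK signalling downstream. Runx1 is a DNA-binding factor needed for blood stem cell formation. Regions that open away from promoters in such cells are commonly enhancers, which bind combinations of factors such as AP-1, STAT5, RUNX, ETS, GATA and C/EBP proteins.

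Most members lay far from promoters, but 13 overlapped a promoter window of the RefSeq table (GRCm38.p6, 250 bases before to 50 after a start). The bases covered by the member are shown for 5 of them, on the gene's strand from 5′ to 3′. These 5 are examples. They have the strongest peak (Fam180a), a STAT match in the covered bases (Ppp1r12b), or a gene with a role in blood or kinase signalling. Others of the 13 that could meet these descriptions, such as Mylk3, are not shown. Capitals mark matches, on either strand, to the AP-1 letters TGANTCA, the STAT letters TTCNNNGAA, the RUNX letters TGTGGT, the ETS letters GGAAGT, the GATA letters AGATAA or the C/EBP letters TTGCNNAA.
Fam180a: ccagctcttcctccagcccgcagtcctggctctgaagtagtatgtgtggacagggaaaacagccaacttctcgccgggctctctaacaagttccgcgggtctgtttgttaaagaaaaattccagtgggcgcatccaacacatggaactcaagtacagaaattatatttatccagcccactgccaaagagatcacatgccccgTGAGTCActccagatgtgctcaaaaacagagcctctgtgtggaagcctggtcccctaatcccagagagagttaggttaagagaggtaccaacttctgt
Ppp1r12b: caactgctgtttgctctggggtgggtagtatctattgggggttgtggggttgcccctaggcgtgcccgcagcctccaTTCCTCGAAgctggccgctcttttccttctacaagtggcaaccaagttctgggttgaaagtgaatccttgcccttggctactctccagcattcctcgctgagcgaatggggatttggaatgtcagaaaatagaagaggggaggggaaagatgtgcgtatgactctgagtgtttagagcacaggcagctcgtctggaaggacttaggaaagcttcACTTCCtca
Txk: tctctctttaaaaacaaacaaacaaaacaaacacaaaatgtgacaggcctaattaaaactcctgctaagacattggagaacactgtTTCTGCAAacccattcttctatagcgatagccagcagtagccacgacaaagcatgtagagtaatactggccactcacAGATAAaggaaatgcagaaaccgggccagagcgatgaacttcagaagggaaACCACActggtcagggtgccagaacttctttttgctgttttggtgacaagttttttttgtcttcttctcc
Smarcd2: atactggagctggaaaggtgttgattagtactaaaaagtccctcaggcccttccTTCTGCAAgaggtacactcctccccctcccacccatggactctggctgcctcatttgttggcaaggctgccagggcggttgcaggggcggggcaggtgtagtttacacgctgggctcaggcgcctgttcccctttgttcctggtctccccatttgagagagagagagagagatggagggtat
F13a1: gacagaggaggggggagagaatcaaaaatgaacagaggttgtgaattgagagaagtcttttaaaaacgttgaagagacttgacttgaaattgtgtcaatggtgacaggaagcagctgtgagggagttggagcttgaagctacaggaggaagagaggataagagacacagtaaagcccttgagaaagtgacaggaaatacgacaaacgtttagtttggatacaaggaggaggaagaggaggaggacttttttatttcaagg

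The Fam180a window (chr6:35326092-35326391, minus strand) holds 1 AP-1 match, and the member covers all 300 bases. The Ppp1r12b window (chr1:134803793-134804092, minus strand), at a gene for a myosin phosphatase subunit, holds a STAT and an ETS match. The covered part at Txk (chr5:72736553-72736836, minus strand), a Tec-family kinase of T cells, holds C/EBP, GATA and RUNX matches. At Smarcd2 (chr11:106267583-106267818, minus strand), a subunit of the SWI/SNF remodelling complex needed for granulocyte formation, there is 1 C/EBP match. The stretch at F13a1 (chr13:37050195-37050454, minus strand), which encodes coagulation factor XIII A of platelets and macrophages, holds none of these letters.

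Over the 13 whole windows, an ETS match was present in 5 (38.5%), against 24.8% of 21263 protein-coding promoters of the same length. RUNX letters were in 3 (23.1%, against 15.0% of all), STAT letters in 2 (15.4%, against 7.69%), C/EBP letters in 2 (15.4%, against 10.2%), GATA letters in 2 (15.4%, against 9.65%), and AP-1 letters in 1 (7.69%, against 6.99%). With 13 windows a single window moves a share by as much as most of these gaps, so the shares are a description only. None of the letter strings contains another. A match does not show that a factor binds, and these windows speak for few of the 1049 members.

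The rule removed nearly all regions that both lists shared. Of 65906 regions with a peak in Flt3-ITD/Runx1-het and Flt3-ITD of set 1, 1049 (1.59%) were absent from the other 6 lists. Removing those also found in set-1 wildtype left 8970, and removing Runx1-het left 3310. Absence from set-2 wildtype left 1828, from NUP98-HOXD13 1474, from set-2 Flt3-ITD 1255 and from NUP98-HOXD13/Flt3-ITD the 1049. Of the 1474 regions absent from all 4 lists without Flt3-ITD, 425 were present in at least 1 of the set-2 lists with it, and 71 in both of those.

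Regions just outside the rule had a peak in exactly 1 further list. There were 437 with set-2 wildtype, 390 with Runx1-het, 209 with set-1 wildtype, 206 with NUP98-HOXD13/Flt3-ITD, 167 with NUP98-HOXD13 and 148 with set-2 Flt3-ITD. The third peak had a lower median −log10 p, the authors' value for the peak, than either member list in the same regions. This median lay between 9.66 in set-2 Flt3-ITD and 18.96 in set-2 wildtype. In the 437 regions with set-2 wildtype, the largest group, the gap was small. There the medians were 19.8 in Flt3-ITD/Runx1-het and 20.4 in set-1 Flt3-ITD. In the 148 regions that set-2 Flt3-ITD shared, the median −log10 p was 28.9 in Flt3-ITD/Runx1-het and 24.6 in set-1 Flt3-ITD. In the members themselves the medians were lower than in those 148 regions, 20.5 and 17.8. Just inside the rule, 56 members had a region that was no member within 200 bp, counting regions found only in 1 of the 2 member lists.

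**Figure D1:**
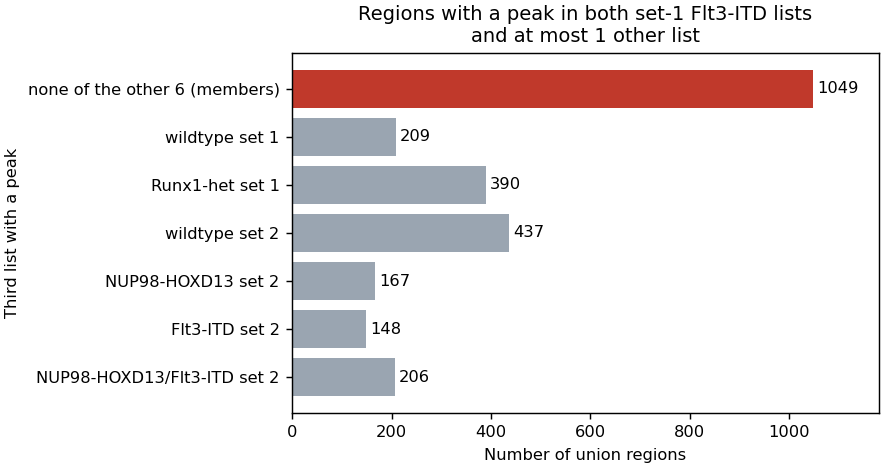
Number of union regions (x axis) with a peak in both set-1 Flt3-ITD lists and absent from the remaining 6 (red, 1049) or in exactly 1 of them (grey, by list). The third list was most often set-2 wildtype (437) and least often set-2 Flt3-ITD (148), the shortest list.

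Other pairs of lists had their own exclusive regions. Flt3-ITD/Runx1-het and Runx1-het alone shared 629 (0.529% of all regions), NUP98-HOXD13/Flt3-ITD and NUP98-HOXD13 alone 1118 (0.94%), and the set-1 lists without Flt3-ITD, Runx1-het and wildtype, 360 (0.303%). The mirror pattern, present in the other 6 lists and missing from both set-1 Flt3-ITD lists, held 173 regions. No test separates these counts, since each rests on single lists of unequal length.

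The members were weak peaks within their own lists. The authors' fold enrichment at the summit had a median of 6.86 in Flt3-ITD/Runx1-het (quartiles 5.32 and 8.76, highest 20.8), against 10.9 over all regions of that list. In Flt3-ITD the median was 6.12 (quartiles 5.08 and 7.41, highest 19.5), against 10.6 over all its regions. Ranked by −log10 p within its own list, the median member stood at percentile 17.8 in Flt3-ITD/Runx1-het and 11.4 in Flt3-ITD. Members reached the upper 50% of the Flt3-ITD/Runx1-het list in 42 cases, of the Flt3-ITD list in 9 and of both in 3. The percentile was higher in Flt3-ITD/Runx1-het than in Flt3-ITD for 701 of 1049 members (66.8%). Regions exclusive to the other pairs also ranked low, with median percentiles between 7.32 and 19.9. Membership rested on list length as well. With every list held to its strongest 84080 peaks, the length of set-2 Flt3-ITD, 813 regions met the rule and 298 of the 1049 (28.4%) were among them.

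The best summits of Flt3-ITD/Runx1-het and Flt3-ITD, which the rule bounds because both peaks must fall in 1 merged region, lay a median of 14 bp apart (quartiles 6 and 25), and 953 of 1049 (90.8%) were at most 50 bp apart. In regions present in all 8 lists the same pair of lists differed by a median of 9 bp, and in the other exclusive pairs the 2 lists differed by 14 to 18 bp. Fold enrichment in the 2 lists had a Spearman rho of 0.62 across the 1049 members and −log10 p a rho of 0.37. These are descriptions over regions that share 2 lists and their depth.

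**Figure D2:**
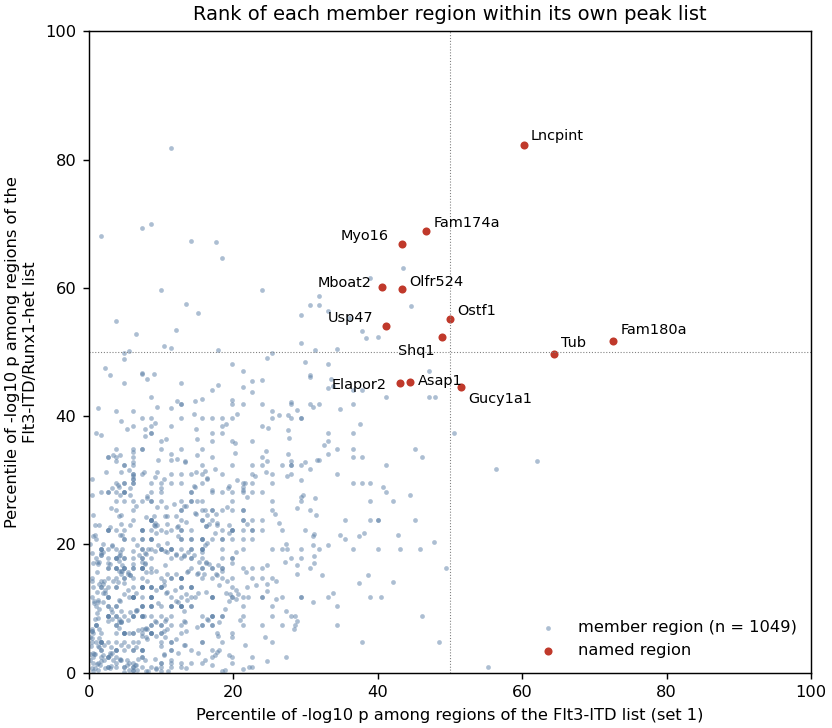
Percentile of −log10 p of each of the 1049 members among all regions of the Flt3-ITD/Runx1-het list (y axis) and of the set-1 Flt3-ITD list (x axis), with named regions in red. Dotted lines mark percentile 50, and 3 members lie above it in both lists.

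The width of the members had a median of 437 bp (quartiles 331 and 574), against 377 bp in the Flt3-ITD/Runx1-het and Runx1-het pair, 373.5 bp in the Runx1-het and wildtype pair and 414 bp in the other regions found in exactly 2 lists. Of the members, 20 (1.91%) were 1 kb or wider, against 1.99% of those other 10555 regions. The regions only in NUP98-HOXD13/Flt3-ITD and NUP98-HOXD13 had a median of 531.5 bp and 5.90% at 1 kb or more. A single peak made up 899 members (85.7%) in Flt3-ITD/Runx1-het and 881 (84.0%) in Flt3-ITD. No share over all regions of these lists was taken, so whether these counts are high or low is unknown. All union regions had a median of 591 bp, but these merge up to 8 lists and are wider for that reason as well.

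Gene promoters were rare among the members. Of the 749 whose nearest gene had a listed start, 26 (3.47%, exact binomial 95% interval 2.28% to 5.05%) lay within 1 kb of it, against 15.7% of all union regions. The share was 5.05% among the other regions in exactly 2 lists (4.55% to 5.58%) and 3.54% to 5.10% in the other exclusive pairs. The intervals cover counting error only, and regions are not independent samples of a genotype. Inside the span of a protein-coding gene lay 585 members (55.8%, 52.7% to 58.8%), against 52.8% of the other regions in exactly 2 lists and 57.5% of all regions. A further 192 lay within 20 kb of a gene, 173 between 20 and 100 kb, and 99 (9.44%, against 9.45% of all regions) had no protein-coding gene within 100 kb. Of 279 members outside the span of a gene with a listed start, 143 (51.3%, against 54.1% of all regions) were on its upstream side. The members thus had the low promoter share of regions called in few lists, and otherwise the placement of open regions in general.

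**Figure D3:**
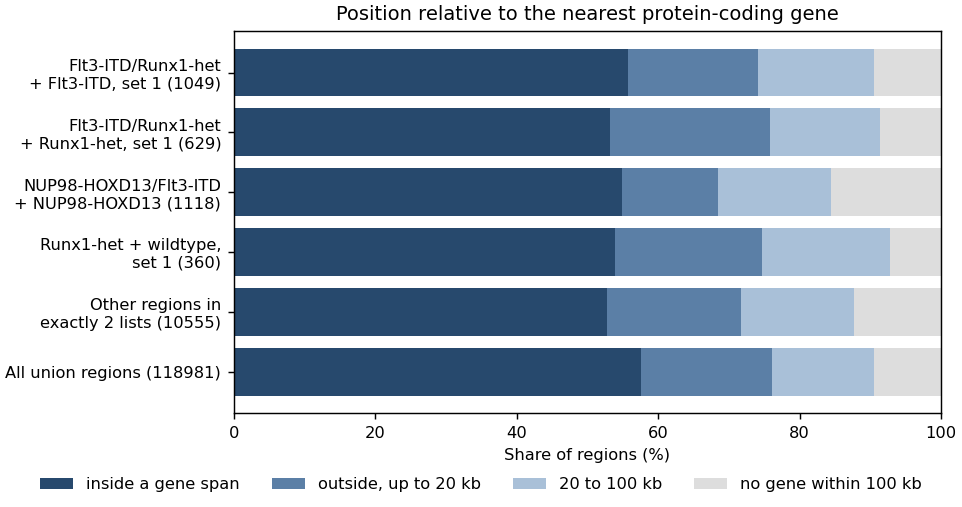
Share of regions (x axis, %) by position relative to the nearest protein-coding gene, for the members (top), 3 other exclusive pairs of lists, the other regions in exactly 2 lists and all union regions, with the number of regions in parentheses. Between 52.8% and 57.5% of each set lay inside a gene span, and 15.6% of the NUP98-HOXD13 pair had no gene within 100 kb.

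**Figure D4:**
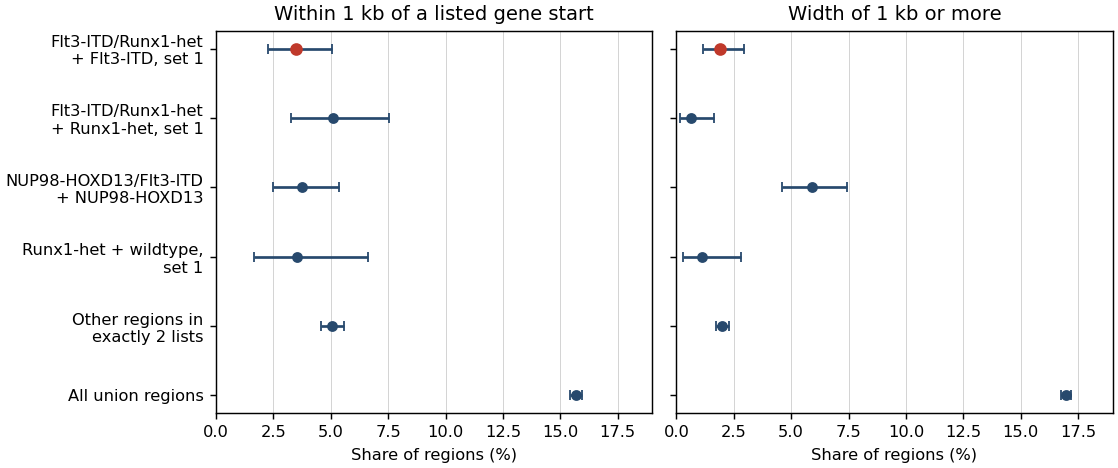
Share of regions (x axis, %) within 1 kb of a listed gene start (left) and 1 kb or wider (right), with the members in red and exact binomial 95% intervals as bars, which cover counting error only. The members (3.47% and 1.91%) lay far below all union regions (15.7% and 17.0%) and near the other regions in exactly 2 lists (5.05% and 1.99%).

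Members lay on all of chromosomes 1 to 19. Their share of all regions ranged from 0.742% on chromosome 16 to 1.27% on chromosome 19. Another member lay within 50 kb of 89 (8.48%), in 43 pairs and 1 group of 3. The same share was 4.45% in the Flt3-ITD/Runx1-het and Runx1-het pair, 11.4% in the NUP98-HOXD13 pair, 4.44% in the Runx1-het and wildtype pair, 48.9% in the other regions in exactly 2 lists and 97.8% in all regions. It depends on the number of regions in a set, so these shares are not directly comparable. The nearest region that was no member lay a median of 3549 bp away (quartiles 1274 and 8716). That neighbour was present in all 8 lists for 365 members (34.8%, against 34.5% of all other regions). The 950 members with a gene within 100 kb had 877 different nearest genes, 5.12% of the genes with any region, and 69 of these had 2 or more.

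The group of 3 lay at Dkk3, which encodes a secreted glycoprotein of the Dickkopf family (chr7:112147789-112173475, 25.7 kb with 4 other regions between). The member inside the gene had a fold of 9.20 in Flt3-ITD/Runx1-het and 5.72 in Flt3-ITD, and the weakest of the 3 had 4.62 and 4.04. At Plxnb2, a semaphorin receptor, a pair of members stood within 709 bp inside the gene (chr15:89177196-89177904), with folds of 3.73 and 4.19 in Flt3-ITD/Runx1-het and 3.27 and 3.25 in Flt3-ITD. Near the end of Ctnnd2, the delta-catenin gene of neuronal junctions, a pair spanned 3428 bp (chr15:31020730-31024157), and the nearest region that was no member was 92735 bp away. The other tight pairs lay on chromosome 19 (27031377 to 27032990) and chromosome 7 (40388065 to 40390395), with no protein-coding gene within 100 kb.

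Genes with the most members had 3 or 2. Elmo1, an activator of Rac in cell movement and engulfment, had 3 members among its 64 regions, with −log10 p of 13.8 to 28.2 in Flt3-ITD/Runx1-het and 16.9 to 23.1 in Flt3-ITD. Prune2 had 3 of 35, Ctnnd2 3 of 30 and Dkk3 3 of 11. Tub, a phosphoinositide-binding protein known from obese mice, had 2 of 8, as had the deubiquitinase gene Usp47, while Elapor2 had 2 of 16. The MADS-box factor gene Mef2a had 2 of 17, 1 inside the gene and 1 upstream of it by 3.74 kb, with folds of 9.76 and 8.76 in Flt3-ITD/Runx1-het and 9.45 and 9.53 in Flt3-ITD. Long genes and genes with many regions have more chances to hold a member.

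The member with the highest lower value of −log10 p over the 2 lists had no protein-coding gene within 100 kb. It lay on chromosome 6 (31159297 to 31159849) inside Lncpint, a long non-coding RNA induced by p53, with a fold of 18.2 in Flt3-ITD/Runx1-het and 12.5 in Flt3-ITD. Its −log10 p was 152.1 in Flt3-ITD/Runx1-het, percentile 82.2, and 71.5 in Flt3-ITD, percentile 60.2. Its summits in the 2 lists were 2 bp apart. It was thus among the few members that were also strong for their lists. Of all members, 109 overlapped a lncRNA gene and 1 a miRNA gene (Mir6915, inside Ankrd52). These counts have no share over all regions beside them, so whether they are high or low is unknown.

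The next members by this value were at genes of varied kinds. At Ostf1, an adaptor named for osteoclast stimulation, a member 2.47 kb from the gene (chr19:18577284-18577898) had a fold of 11.7 in Flt3-ITD/Runx1-het and 10.1 in Flt3-ITD. The member over the start of Fam180a (chr6:35325892-35326704), whose sequence is shown above, had folds of 13.9 and 19.5, and the −log10 p of 106.8 in Flt3-ITD was the highest of any member in that list. The member upstream of Tub by 16.5 kb (chr7:108993883-108994334) also ranked higher in Flt3-ITD, with −log10 p of 50.1 in Flt3-ITD/Runx1-het and 81.2 in Flt3-ITD. Members thus differed in which of the lists held the stronger peak.

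Shq1, an assembly factor of H/ACA ribonucleoproteins, had a member 60.7 kb away (chr6:100510539-100511091) with folds of 14.4 in Flt3-ITD/Runx1-het and 13.1 in Flt3-ITD. At Fam174a the member lay 64.4 kb away (chr1:95399674-95400289), with folds of 18.5 and 12.6. Inside Myo16, an unconventional myosin gene (chr8:10562099-10562492), −log10 p was 83.7 in Flt3-ITD/Runx1-het and 44.6 in Flt3-ITD. The member inside the olfactory receptor gene Olfr524 (chr7:140203509-140204150) was the only region of any list nearest to that gene, with folds of 11.99 and 9.43.

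The remaining members named by this rule had folds of 10.1 to 14.9 in Flt3-ITD/Runx1-het and 9.34 to 12.5 in Flt3-ITD. They lay inside Asap1, a GTPase-activating protein for ARF (chr15:64340736-64341124), and inside Elapor2 (chr5:9362110-9362951). Others lay inside Gucy1a1, a subunit of the nitric oxide receptor guanylate cyclase (chr3:82124456-82125124), and inside Usp47 (chr7:112055931-112056253). The last was 53.9 kb from Mboat2, a lysophospholipid acyltransferase gene (chr12:24776543-24777546).

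Gene lists were compared by the share of the regions nearest to their genes that were members, which was 0.882% over all 107740 regions with a gene within 100 kb. The 18 lists were written with earlier results of these data known. With no members were 3 lists, with 1 to 3 members 12 lists, and with more than 3 members 3 lists. Counts of this size are given as a description, and no list was tested.

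**Figure D5:**
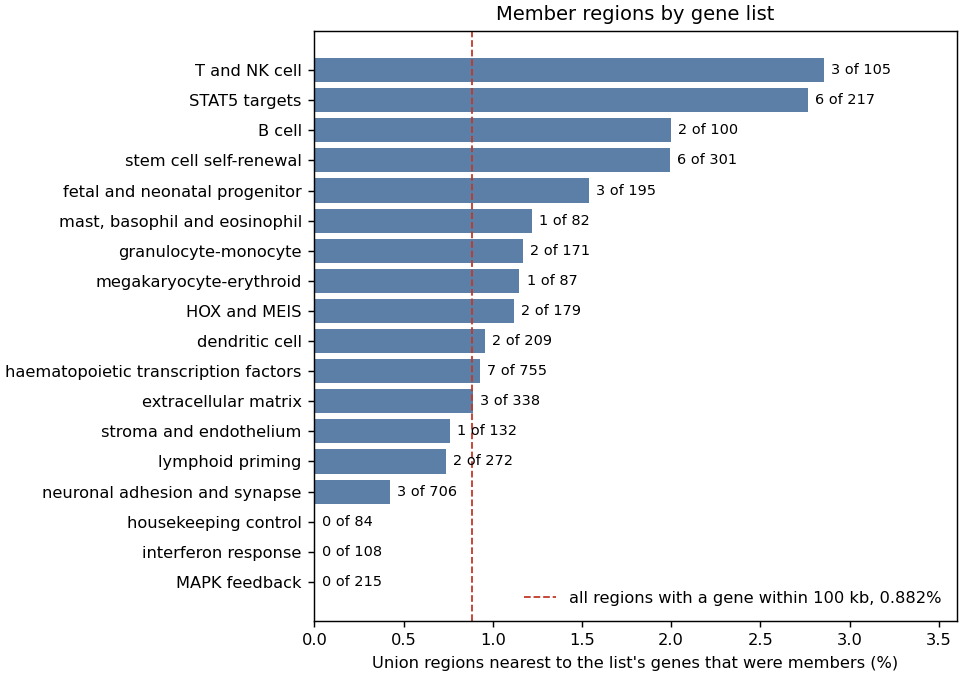
Share of union regions nearest to a list's genes that were members (x axis, %), with members and regions beside each bar. The dashed line is the share over all regions with a gene within 100 kb (0.882%). The highest shares were those of T and NK genes (3 of 105) and STAT5 targets (6 of 217).

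STAT5 targets, genes induced by the factor that Flt3-ITD activates, had 6 members among 217 regions (2.76%), at 4 of 20 genes. Their median lower −log10 p was 16.9, against 15.7 over all members. Both members of Socs2, a feedback inhibitor of cytokine receptors, lay on chromosome 10. The member 15.7 kb from the gene (95367489 to 95368209) had a fold of 9.24 in Flt3-ITD/Runx1-het and 8.05 in Flt3-ITD, and that inside it (95410770 to 95411344) had 4.50 and 4.39. Of the 16 regions nearest to Socs2, Flt3-ITD/Runx1-het held 12 and set-1 Flt3-ITD 6, against 5 in Runx1-het, 7 in set-1 wildtype, and 4 or 5 in each set-2 list. In Flt3-ITD/Runx1-het alone stood 5 of the 16, and in all 8 lists 2.

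Myc, the growth-driving transcription factor gene, was the nearest gene of 2 members on chromosome 15. The farther, at 65.9 kb inside the lncRNA Pvt1 (62056297 to 62056790), had a fold of 7.57 in Flt3-ITD/Runx1-het and 7.20 in Flt3-ITD. The nearer, at 21.3 kb (62011633 to 62012079), had 8.28 and 5.51. Flt3-ITD/Runx1-het held 12 of the 14 regions of Myc and set-1 Flt3-ITD 8, against 6 in Runx1-het, 8 in set-1 wildtype and 5 to 9 in the set-2 lists. At both genes the largest number was that of Flt3-ITD/Runx1-het, while Flt3-ITD held no more regions than set-1 wildtype. By the rule, the 2 members of each gene count for both member lists and for no other list. These numbers are therefore partly set by the selection. The last members of this list lay inside Bcl2, an inhibitor of apoptosis (chr1:106653529-106654020), with folds of 4.97 and 8.26, and inside Il2ra, an interleukin-2 receptor chain (chr2:11662160-11662503), with 4.52 and 3.35. Of the 37 regions nearest to Bcl2, Flt3-ITD/Runx1-het held 25, against 28 in set-1 Flt3-ITD, 26 in Runx1-het and 16 to 22 in the other lists. Of the 10 nearest to Il2ra it held 7, against 8 in set-1 Flt3-ITD, Runx1-het and NUP98-HOXD13/Flt3-ITD, and 6 or 7 in the others. The excess of Flt3-ITD/Runx1-het at Socs2 and Myc was thus absent at these genes.

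Stem cell genes had 6 members among 301 regions (1.99%). The member 41.1 kb upstream of Gata2, a zinc-finger factor of stem and mast cells (chr6:88151921-88152822), was uneven between the lists, with −log10 p of 84.5 in Flt3-ITD/Runx1-het and 21.8 in Flt3-ITD. Inside Vwf, the gene for von Willebrand factor (chr6:125685131-125685887), the values were 31.7 and 29.8. A member 77.1 kb from Mllt3, a chromatin reader that sustains stem cells (chr4:87692505-87692836), had 21.5 and 28.8. Kit, the stem cell factor receptor, had a member 16.5 kb from the gene with 18.8 and 13.1.

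Lineage lists had few members, but not always low shares. T and NK genes had 3 of 105 regions (2.86%), the highest share of the 18 lists, with STAT5 targets next (2.76%). It rested on 3 members at 2 genes. The 2 members nearest to Gata3, a T cell factor, lay 3.985 and 97.3 kb from the gene, and the other 5.22 kb from Cd3e. B cell genes had 2 of 100 (2.0%), inside the adaptor gene Blnk and the factor gene Ebf1. Granulocyte and monocyte genes had 2 of 171 (1.17%). Of these, the member 0.604 kb from Cebpe, a factor of granulocyte maturation (chr14:54712778-54713281), had −log10 p of 24.7 in Flt3-ITD/Runx1-het and 15.4 in Flt3-ITD. The other, 11.8 kb from Irf8, a monocyte and dendritic cell factor (chr8:120768455-120769153), had 20.4 and 10.7. Dendritic cell genes had 2 of 209 (0.957%), mast, basophil and eosinophil genes 1 of 82 (1.22%, at Gata2) and megakaryocyte and erythroid genes 1 of 87 (1.15%, at Vwf). These lists share genes with each other, so the same member can stand in more than 1 count.

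Transcription factors of blood cells had 7 of 755 regions (0.927%). The member inside Runx2, a paralogue of Runx1 (chr17:44599098-44599462), had a fold of 11.8 in Flt3-ITD/Runx1-het and 8.05 in Flt3-ITD. A member 68.7 kb upstream of Nfia, a nuclear factor I gene (chr4:97508610-97509384), had 11.4 and 7.63. Inside Fli1, an ETS factor gene, the folds were 3.51 and 3.65, and inside Bach2, a transcriptional repressor gene active in B cells, 9.23 and 5.08. The 13 regions nearest to Flt3 and the 35 nearest to Runx1 included 0 members. A count of 0 allows 3 counts, and the share over all regions with a gene was 0.882%. These 0 counts therefore say little about either gene.

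Fetal and neonatal progenitor genes had 3 of 195 regions (1.54%, nearest to Sox17, Bcl11a and Hmga2), HOX and MEIS genes 2 of 179 (1.12%), and lymphoid priming genes 2 of 272 (0.735%). The Bcl11a member lay 84.7 kb from the gene. That inside Hmga2 was weak, with −log10 p of 7.46 in Flt3-ITD/Runx1-het and 14.6 in Flt3-ITD. Extracellular matrix genes had 3 of 338 (0.888%), stromal and endothelial genes 1 of 132 (0.758%, at Col1a1) and neuronal adhesion genes 3 of 706 (0.425%). The lists without a member were interferon response genes with 0 of 108 regions, which allows a share of up to 2.78%, MAPK feedback genes with 0 of 215, which allows up to 1.40%, and housekeeping genes with 0 of 84, which allows up to 3.57%. In all, 12 lists had a share above that of all regions with a gene (0.882%), and 3 with members a share below it. Some of the 12 lay close to it, such as extracellular matrix genes (0.888%) and transcription factors of blood cells (0.927%). Some of these lists share genes, so the 12 are not separate counts, and the tally was not tested.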

How the data were processed

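ATAC-seq was done on 16 samples in 8 groups, and each group had 1 deposited peak list. Per the submitters' processing notes, the tools were Bowtie2 and MACS2 and the builds mm10 and GRCm38. Neither versions nor calling thresholds were stated. Every peak carried, as deposited, a score of 413 to 1000, a fold enrichment ratio, a −log10 p and a −log10 q. What the score stands for is not given, and it was not interpreted.

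Peaks of chromosomes 1 to 19 overlapping by 1 bp were merged over the lists. A list's value for a region is that of its peak with the highest −log10 p. The nearest protein-coding gene was the RefSeq gene (GRCm38.p6, 21887 genes) whose span was closest, within 100 kb. Gene starts came from the RefSeq promoter table, which gave one for 17492 of them, and regions whose nearest gene had none were not used for start distances. Members within 50 kb of each other were joined. Of 361 gene list entries, 358 matched. Intervals are exact (Clopper-Pearson, 95%), and a count of 0 allows 3 counts. With 1 list per group no test was made.

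Named regions were the 12 with the highest lower −log10 p (1 per gene), the 8 genes with most members, the 5 largest and tightest groups, up to 3 genes per list, Flt3, Runx1 and the strongest member without a gene. Kit, Fli1, Bach2, Il2ra, Mir6915 and the region counts at Socs2, Myc, Bcl2 and Il2ra were chosen after their values were seen. The members and gene lists were chosen with earlier results of these data known. Python 3.11.15, pandas 2.3.3, numpy 2.4.6 and scipy 1.17.1 were used, and the scripts were tested on simulated data. The members of 1 gene in these lists are not reported here.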

Additional observations from a re-analysis of the deposited data

How the results depend on the processing

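The number of member regions was 1049 as reported and lay between 813 and 1199 under the 7 alternatives: 1112 with −log10 q of at least 5 in every list, 813 with equal numbers of peaks, 1013 with peaks up to 200 bp apart merged, 1042 with −log10 q of at least 5 in the member lists, 1011 with summits at most 100 bp apart, 1078 with chromosomes X and Y, and 1199 without the set-2 Flt3-ITD list, an alternative chosen after seeing the data. Equal numbers kept 298 of the reported members, against 1007 or more under each of the other 6. The share with another member within 50 kb was 8.48% as reported, 11.3% without the set-2 Flt3-ITD list, 5.24% within 20 kb and 17.8% within 100 kb. A gene lay within 20 kb of 74.1%. The share nearest to STAT5 targets was 2.33% with equal numbers (4 of 172 regions), against 0.865% of all regions with a gene within 100 kb. The lowest −log10 p kept there was 20.1 in Flt3-ITD and 19.3 in Flt3-ITD/Runx1-het. The reported members inside Bcl2 and Il2ra and the nearer of the Myc members lay below it in a member list. They were therefore not among those 4. No paired analysis was possible because each group had 1 pooled list, which also left no replicate to leave out. Read depth was unknown, so a missing peak in a list does not show closed chromatin.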
